A study of Homo sapiens with 6 samples.

Results

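A set of 183 of the 24350 probes passed a detection limit on both arrays of Ha-RAS transformed Caco-2 cells and on no array of the lines they were compared with. A reading under that limit does not show that a transcript was absent. Caco-2 is an established human colon adenocarcinoma line whose cells form an absorptive-type epithelium. The 6 arrays hold 2 samples each of Ha-Ras transformed cells (line CacoH2), Ki-Ras transformed cells (line CacoK15) and control Caco-2 cells with no RAS transformation named. All cells were untreated and were harvested before confluence, and the 2 samples of a line count as biological replicates in the design text. The labels attach an EMT phenotype to 1 Ha-RAS sample only, and rapid growth to that sample and to both Ki-RAS samples. Each RAS isoform is represented by 1 transformed line, so transformation and line cannot be told apart, and the vector, the RAS allele and the level of the introduced RAS are not given in the sources used here.

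A member had a detection score of at least 0.99 on both Ha-RAS arrays, a score under 0.99 on each of the other 4 arrays, and a mean raw signal of at least 120 intensity units in Ha-RAS cells. By the manufacturer's convention, the detection score runs from 0 to 1 and ranks a probe's signal against negative control beads on its own array. Raw signal is the mean brightness over the beads that carry a probe. The members were therefore chosen by their own signals, and every difference between Ha-RAS cells and the other lines given here is a description of that choice. Without the signal minimum 544 probes showed this detection pattern, and 361 of them were too dim to be members. The members made up 2.37% of the 7731 probes that were detected on both Ha-RAS arrays at or above the minimum.

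RAS proteins are small GTPases that pass signals from receptors at the cell membrane to kinase cascades, and the Ha and Ki isoforms differ mainly in the tail that anchors them to membranes. In epithelial cells, activated RAS can favour an epithelial-to-mesenchymal transition (EMT), in which cells loosen their junctions and exchange an epithelial for a mesenchymal cytoskeleton. Vimentin, the intermediate filament protein of mesenchymal cells, is among the most widely used markers of that change.

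The probes are named by GI numbers, the sequence record numbers of the nucleotide databases, and the files pair no number with a gene. None of the IDs matched the RefSeq gene table used here (0 matches), so Caco-2 identity, RAS levels and gene lists for EMT, RAS target genes or other cell types could not be checked. A single member is named here. The number of GI_4507894-S is that of the vimentin messenger RNA record, which is taken from general knowledge of the record and was not tested on these files. The other members are described by their IDs, and no role is given for them.

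The arrays detected between 9245 and 10192 probes each, with the highest counts on the Ha-RAS arrays (10092 and 10192). The lowest signal that counted as detected lay between 83.5 and 88.8 on every array. A member's signal rested on 10 to 69 beads, with a median of 41 to 44 per array, and the spread between beads had a median of 4.39% and 4.54% of the signal on the Ha-RAS arrays.

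The vimentin probe gave the strongest signal of the set. GI_4507894-S read 7912.1 and 7408.6 on the Ha-RAS arrays, 75.0 and 75.6 on the Ki-RAS arrays, and 65.0 and 63.5 on the control arrays. The Ha-RAS arrays thus lay far above the other 4, which stayed below the detection limit and close to one another. Each array reads RNA pooled over a culture, so fewer cells with a transcript and less of it per cell cannot be told apart here or for any other member. On the scale corrected for background and normalized between arrays, its log2 intensity was 12.74 ± 0.066 (SD, n = 2) in Ha-RAS, 4.71 ± 0.11 in Ki-RAS and 4.48 ± 0.021 in control cells. Where no array of a line detects a probe, a fold change is only a lower bound, set against the lowest signal that the line's arrays could detect. The bound depends on the background, which is part of every raw signal and makes folds of uncorrected signals smaller. Without background correction vimentin was at least 79.3-fold higher than in control and at least 79.4-fold higher than in Ki-RAS cells. With background corrected as described for the normalized scale, the same bounds were 187-fold and 188-fold, and they hold for that correction only. Bounds are given below in both forms, over control.

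Every member lay below the lowest detected signal on each of the 4 other arrays. The bounds over control and over Ki-RAS cells therefore differ by a constant factor, and they order the members by their Ha-RAS level alone. Signals of different probes also depend on how well each probe binds, so the order is one of measured signal and not of transcript number.

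GI_34147323-S followed vimentin, at 4745.9 and 4301.6 in Ha-RAS, 81.0 and 79.9 in Ki-RAS, and 69.2 and 74.2 in control cells. Both Ha-RAS arrays were high and the other 4 low, and the bound was 45.0-fold on uncorrected and 106-fold on corrected signals. GI_21536467-A, whose suffix marks a design against every isoform, read 2584.9 and 2260.5 in Ha-RAS cells and between 61.5 and 69.4 elsewhere. Its bound was 24.1-fold uncorrected and 56.0-fold corrected.

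GI_4505466-S was among the 16 members that scored below 0.5 on all 4 other arrays. It read 1854.1 and 1543.0 in Ha-RAS cells, 59.3 and 58.3 in Ki-RAS cells, and 56.5 and 58.7 in control cells. Its highest detection score off Ha-RAS was 0.341, which means that most negative control beads on that array were brighter. The bound was 17.4-fold uncorrected and 40.1-fold corrected. GI_14790166-A read 1682.2 and 1517.0 in Ha-RAS cells, 71.1 and 68.3 in Ki-RAS cells, and 80.4 and 79.5 in control cells. Here the control arrays came close to the detection limit (score 0.983 on both), and the bound was 16.4-fold uncorrected and 37.5-fold corrected.

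GI_4506762-S was less even between the Ha-RAS samples, at 1717.8 and 1280.8, with 56.7 to 69.9 on the other arrays and bounds of 15.1-fold uncorrected and 34.5-fold corrected. GI_16306531-A was the last member above 1000, at 970.5 and 1134.3 in Ha-RAS cells against 53.5 to 62.5 elsewhere, where no score exceeded 0.210. Its bound was 10.7-fold uncorrected and 24.1-fold corrected. In these probes, as in all 183 members, each Ha-RAS array lay above all of the other 4, which the rule favours.

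The remaining probes among the 12 with the highest bounds were GI_20270326-S, GI_13259505-S, GI_5579451-S, GI_16904386-S and GI_34850060-S. Their mean Ha-RAS signals ran from 833.1 to 979.3 and their bounds from 8.47-fold to 9.90-fold uncorrected and from 18.7-fold to 22.1-fold corrected. On the other 4 arrays these probes read between 54.8 and 80.4.

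**Figure D1:**
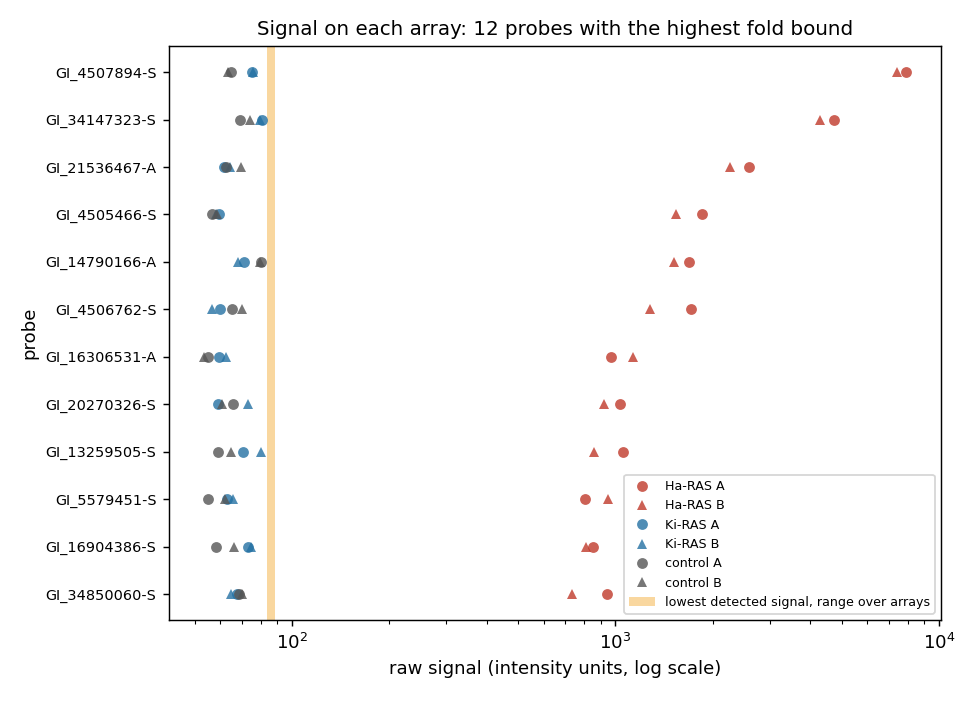
Raw signal (intensity units, log scale) of the 12 probes with the highest fold bound over control, with 1 point for each of the 6 arrays; colour marks the line, circles sample A and triangles sample B. Every Ha-RAS point lies right of the band of lowest detected signals (83.5 to 88.8), and every Ki-RAS and control point lies left of it.

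Most members were much dimmer than these. The mean Ha-RAS signal had a median of 163 over the 183 members, and 114 of them lay below 200. Only 7 members reached 1000 and 22 reached 500. The 6 strongest carried 31.6% of the summed Ha-RAS signal of all members, and vimentin alone 12.5%. On the individual arrays the members ran from 109.5 through a median of 166.9 to 7912.1 on Ha-RAS A, and from 108.6 through 160.0 to 7408.6 on Ha-RAS B. Their medians were 69.3 and 72.7 on the Ki-RAS arrays and 65.3 and 66.5 on the control arrays. Undetected probes as a whole had medians of 66.6 and 70.5 in Ki-RAS and 64.2 and 63.5 in control cells, so a typical member was within a few units of the background of those arrays.

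The bounds over control followed the same skew. On uncorrected signals they ran from 1.27-fold to 79.3-fold with a median of 1.70-fold. A bound of at least 2-fold was then reached by 72 members, at least 4-fold by 28, at least 16-fold by 5 and at least 32-fold by 2. With background corrected the range was 1.64-fold to 187-fold and the median 2.65-fold, and the same counts were 132, 61, 14 and 6. As a measure that needs no normalization, the lower of the Ha-RAS signals was divided by the highest signal on the other 4 arrays. It is drawn from the signals that the rule used, so it gives the bounds no separate support. This ratio had a median of 2.14, exceeded 10 for 13 members and was lowest for GI_4507114-S, at 1.26.

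All 183 members had both Ha-RAS arrays above the other 4 in raw signal, against 39.0% of the 10848 probes tested. A probe was tested when both arrays of at least 1 line detected it, which every member met through its Ha-RAS arrays. In the limma fit over all tested probes, all 183 were called higher in Ha-RAS than in control cells, where 28.6% of tested probes were. All 183 were also called higher in Ha-RAS than in Ki-RAS cells, where 31.6% of tested probes were. The rule chose the members on these contrasts, which share the Ha-RAS arrays, and nothing is read from the counts. The median log2 difference over members was 2.11 against control and 2.12 against Ki-RAS cells, beside 0.06 and 0.06 over all tested probes.

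The limit of 120 cut through a continuous run of signals. Just inside it lay GI_45439368-S with a mean Ha-RAS signal of 120.4, GI_8922357-S with 120.75, GI_11545816-S with 121.0 and GI_40788020-I with 121.1. Just outside were GI_4758937-S with 119.95, GI_23943919-S with 119.85, GI_4505394-S with 119.35 and GI_45439361-S with 119.15. The same was true of the detection limit. GI_23397486-S, GI_7656882-S, GI_25777625-A and GI_13259538-S shared the highest score off Ha-RAS, 0.9897 and just under the limit. Of these, GI_23397486-S read 314.7 and 264.7 in Ha-RAS cells and 67.8 to 83.2 elsewhere, whereas GI_13259538-S read 139.7 and 126.6 against 78.7 to 83.4.

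Absence in the other lines was thus graded. In 71 members at least 1 of the other 4 arrays had a score of 0.95 or more, and in 112 every one of them was below 0.95. The uncorrected bound over control was at least 2-fold for 46 of those 112 members and for 72 of all 183. At the low end, 16 members scored below 0.5 on all 4 other arrays. The lowest was GI_40354209-S (chosen after its values were seen), at 139.3 and 124.6 in Ha-RAS cells and 44.6 to 58.1 elsewhere, with no score above 0.156.

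A further 71 probes met the Ha-RAS part of the rule but were detected on exactly 1 of the other 4 arrays, and so are not members. That array was Ki-RAS A for 19 of them, Ki-RAS B for 23, control A for 10 and control B for 19. The brightest, GI_42794611-S, read 3738.1 and 3248.4 in Ha-RAS cells and 92.6 and 80.8 in Ki-RAS cells, of which the first passed the limit, and 59.8 and 57.7 in control cells. It was left out by that single reading of 92.6 on Ki-RAS A (score 0.999), where the lowest detected signal was 83.5. This probe, too, was picked after its values were seen.

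**Figure D2:**
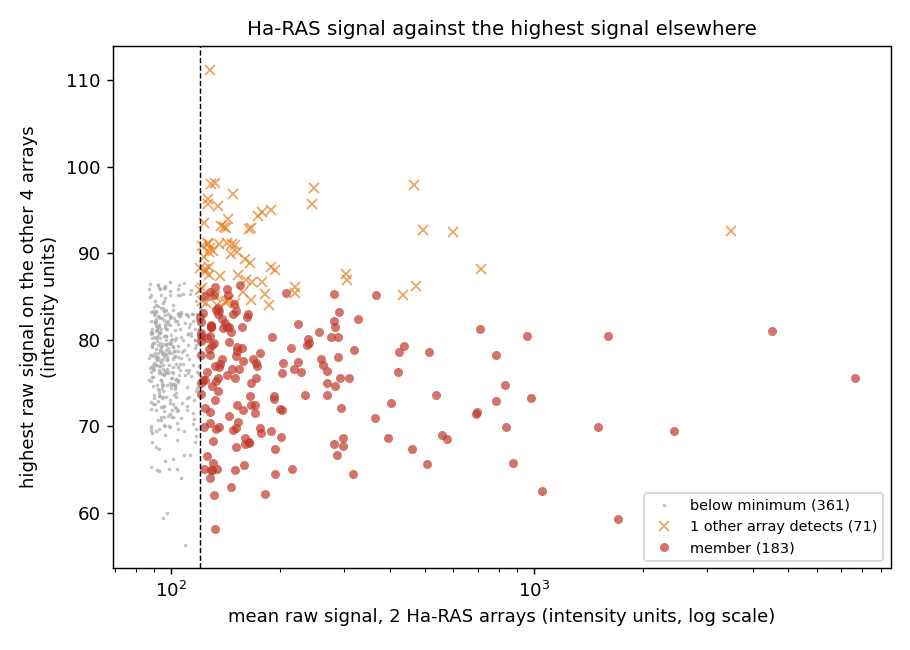
Mean raw signal of the 2 Ha-RAS arrays (log scale) against the highest raw signal on the other 4 arrays, both in intensity units, for the 183 members, the 361 probes of the same detection pattern below the minimum of 120 (dashed line) and the 71 probes that 1 other array detected. The 3 classes adjoin one another without a gap. The rule caps the members' highest signal elsewhere at the detection limit, so its lack of a rise toward the brightest members is not read as a result.

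The rule asked for detection on both Ha-RAS arrays, so some agreement between samples A and B on the members was built in. The probes set beside the members below passed the same detection limit on both arrays. Sample A gave the higher raw signal for 134 of 183 members (73.2%), as it did for 77.4% of the 9604 probes that both Ha-RAS arrays detected. After normalization A was higher for 92 members (50.3%), against 52.0% of those probes. The size of the log2 difference between A and B had a median of 0.16 over members, against 0.14 over the 9604 probes, and it exceeded 0.5 for 9 members. After normalization the members thus showed no lean toward the sample whose label mentions EMT.

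The least even members were all dim. GI_42659115-S read 134.7 on Ha-RAS A and 179.4 on B, a log2 difference of 0.77 in favour of B. GI_4507114-S went the other way, at 156.1 and 108.6 (log2 difference 0.71), and its lower Ha-RAS reading came closest to the other lines, where Ki-RAS B read 86.1. GI_38230497-S read 137.7 and 176.4, a log2 difference of 0.68 in favour of B. In each of them both Ha-RAS readings were above the other 4, as in all 183 members, which the rule favours.

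The suffix of an ID states what the probe was designed against, by the manufacturer's convention: S a single transcript, A all isoforms of a gene's transcript, and I a single isoform among several. The members held 150 S probes (82.0%), 24 A probes (13.1%) and 9 I probes (4.92%). Over the whole array the shares were 79.1%, 8.96% and 11.97%, so I probes were the less frequent among members. The same shortfall of I probes was present in all 7731 probes detected at or above 120 in Ha-RAS cells, with 83.0% S, 11.99% A and 4.97% I. Read within a class, members made up 2.34% of those S probes, 2.59% of the A probes and 2.34% of the I probes. These shares are descriptions, and no test of their difference was run.

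Mean Ha-RAS signals spanned a range in each class. S members ran from 120.4 to 7660 with a median of 169. A members ran from 121.1 to 2423 with a median of 150.1. I members ran from 121.1 to 224 with a median of 136.2. The classes hold very different numbers of probes, and signals of different probes are not set against each other. The strongest A members were GI_21536467-A, GI_14790166-A and GI_16306531-A, given above, and GI_28373118-A. The last read 585.8 and 569.1 in Ha-RAS, 57.6 and 68.5 in Ki-RAS, and 49.4 and 48.7 in control cells, and its bound was 5.9-fold uncorrected and 12.6-fold corrected. Both of its Ha-RAS arrays were high, with the control arrays the lowest.

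GI_27502392-I was the strongest I member, at 228.0 and 220.3 in Ha-RAS cells and 61.5 to 77.4 elsewhere, with bounds of 2.32-fold uncorrected and 4.13-fold corrected. GI_33946314-I read 156.6 and 174.5 against 53.0 to 73.5. GI_23943849-I read 157.8 and 144.7 against 66.5 to 78.1, and GI_6806896-I 139.2 and 136.9 against 58.6 to 77.8. None of the latter 3 had a corrected bound above 2.71-fold or an uncorrected one above 1.73-fold.

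For 11 of the 33 A and I members the array carried the other kind of probe under the same GI number. Such pairs show whether the signal for all isoforms came with a signal for the isoform of that record. A single record, GI_14790166, had both of its probes among the members. Its A probe read 1682.2 and 1517.0 in Ha-RAS cells, and its I probe 158.0 and 114.4, with 69.1 to 77.2 for the I probe on the other 4 arrays. Both probes of this record were thus detected on the Ha-RAS arrays and on no other.

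In the other 8 pairs with an A member, the I probe was detected on both Ha-RAS arrays only for GI_38201636. Its I probe read 116.7 and 104.0 there, with a mean below 120, and was undetected on the other 4 arrays. For 7 A members the I probe was detected on none of the 6 arrays. GI_14165455-A is an example, with 515.1 and 501.7 in Ha-RAS cells where its I probe read 69.5 and 68.3. GI_22035669-A read 279.3 and 195.2, with its I probe at 77.2 and 70.4. Detection of the I probe in 2 of 9 pairs (22.2%) is beside 28.6% of the 245 GI numbers whose A probe was detected at or above 120 in Ha-RAS cells, so an unseen I probe was the usual case on these arrays. The reverse case was GI_27502392-I, whose A probe read 85.3 and 89.4 in Ha-RAS cells and was detected on B alone.

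**Figure D3:**
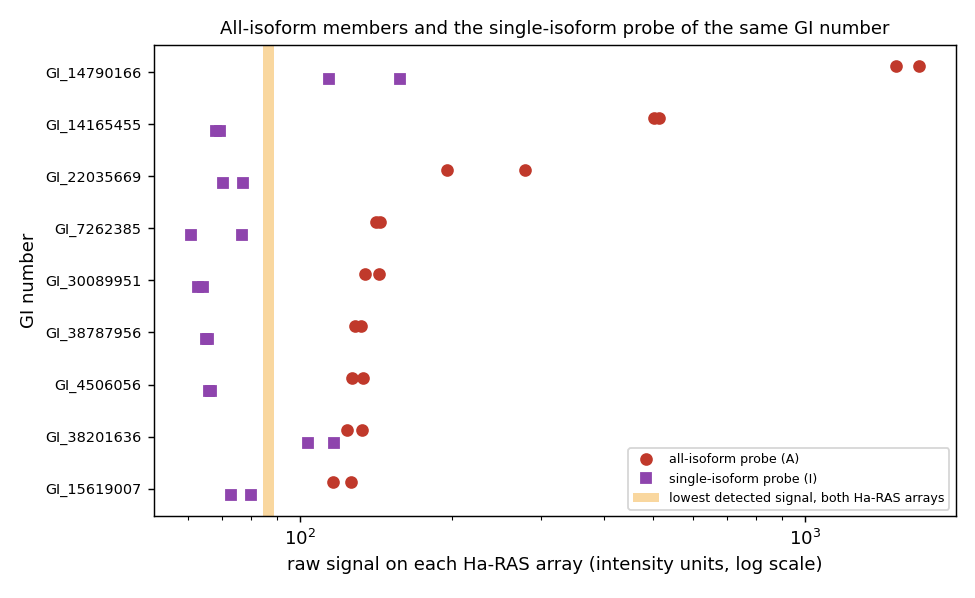
Raw signal on each of the 2 Ha-RAS arrays (intensity units, log scale) for the 9 all-isoform members with a single-isoform probe under the same GI number; circles are all-isoform and squares single-isoform probes. Squares lie right of the band of lowest detected signals (84.5 to 88.8) for GI_14790166 and GI_38201636 only; levels of different probes are not comparable, so only the side of the band is read.

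The rule asked nothing about the order of Ki-RAS and control cells, but it held both below the detection limit. Small differences and few calls between these lines were therefore favoured by the rule. The values below describe the members, and nothing is read from the number of calls beside that over all tested probes. The median difference of Ki-RAS minus control was 0.01 on the log2 scale, as it was over all tested probes (0.01), and 97 of 183 members had a positive value. In the limma fit 10 members were called at adjusted p under 0.05 after Benjamini-Hochberg adjustment, against 55.1% of all tested probes. Of these, 3 were higher in Ki-RAS cells, where the share of tested probes was 27.9%, and 7 were lower, where it was 27.2%. The tested probes that both lines left undetected are the 544 with the detection pattern of the members at any signal, and they include the 183 members. Of these 544, 38 were called (6.99%), beside 5.46% of the members, so the shares are not independent. Raw signals gave a different picture, with both Ki-RAS arrays above both control arrays for 85 members (46.4%) and the reverse for 12 (6.56%). The shares were 40.7% and 4.59% among the 12549 probes that the 4 arrays did not detect and that were not detected on both Ha-RAS arrays, so Ki-RAS arrays had the higher background overall.

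The called members lay below detection in both lines, so these are differences between background readings, and only the readings are given. GI_24475740-S read 82.4 and 82.6 in Ki-RAS and 59.0 and 48.3 in control cells. Its Ki-RAS scores of 0.987 and 0.964 were just short of the limit. GI_10863996-S was likewise near detection in Ki-RAS cells, at 82.9 and 85.1 against 69.2 and 66.9 in control cells.

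In the other direction, GI_31543978-S read 65.8 and 67.2 in Ki-RAS and 81.4 and 80.2 in control cells. GI_45439368-S read 54.8 and 71.7 against 75.8 and 82.6. GI_23943849-I read 66.5 and 66.7 against 77.8 and 78.1, and GI_14790166-A was given above. In these 4 probes the control scores lay between 0.961 and 0.988, just short of the limit. With an offset of 50 in the background correction, which shrinks differences among dim probes, the count of called members was 1, GI_24475740-S. With 1 array left out, GI_24475740-S, GI_31543978-S and GI_23943849-I were called in each of the 6 fits.

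The same rule turned to the other lines found 123 probes for Ki-RAS cells alone and 176 for control cells alone. Before the signal minimum the lead of Ha-RAS was wider, with 544 probes for Ha-RAS, 317 for Ki-RAS and 322 for control cells. The minimum thus kept 33.6% of the Ha-RAS pattern, 38.8% of the Ki-RAS pattern and 54.7% of the control pattern. A signal of 1000 was reached by 7 Ha-RAS, 2 Ki-RAS and 15 control probes, and the median signals were 163, 176 and 201. The Ha-RAS arrays also detected the most probes and their median signals over all probes were 79.9 and 77.5, against 71.4 to 77.9 elsewhere. The part of these in the number of dim members was not tested. With signals scaled to a common median before the minimum was applied, 167 members were left.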

How the data were processed

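Biotin-labelled RNA from 6 samples was measured on Illumina bead arrays, per the labels' protocols and the file headers. The deposited signal is an intensity on a linear scale, with the spread between beads, the bead number and a detection score beside it, per the file headers. The authors worked in BeadStudio (version 1.5.13, submitters' processing notes) and did not normalize, per the design text. Whether they subtracted background is not stated in the labels. The deposited series table holds the same intensities (0 differing cells). Groups and replicate letters come from the sample titles.

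Of the rows, 4 with bacterial gene names were left out. In limma 3.58.1 under R 4.3.3, nec corrected background from 1 minus the detection score, with an offset of 16, followed by log2 and quantile normalization. Probes detected (score at least 0.99) on both arrays of at least 1 line were tested (10848). lmFit held 3 group means over all 6 arrays (3 residual and 7.1 prior degrees of freedom), with eBayes, two-sided tests and Benjamini-Hochberg adjustment over all tested probes. A fold bound is the Ha-RAS mean over the mean of, per array of the other line, the higher of the lowest detected normalized signal and the probe's own; it is given with and without background correction. The number of arrays limits the precision, and p-values measure the spread between samples of 1 line.

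Probes named are the 12 with the highest bounds, the 4 strongest A and I members, those nearest the limits, the 3 least even between Ha-RAS arrays and the 6 largest Ki-RAS against control calls, plus 2 singled out afterwards and the examples of probe pairs. Members, lists and this rule were chosen with earlier results of these data known. The gene lists of the plan could not be measured without gene names. The procedure was tested on simulated data.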

Additional observations from a re-analysis of the deposited data

How the results depend on the processing

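The number of members followed the limits of the rule. It was 544 with a signal minimum of 80 or with none, 69 with a minimum of 200, and 112 both with a detection limit of 0.95 throughout and with the other arrays held below 0.95. With 1 array left out it ran from 174 to 206. All 183 members stayed called higher against control and against Ki-RAS cells under every alternative run, which the choice of members favours. Their median log2 difference moved with the processing. Against control it was 1.16 without background correction, 1.23 with an offset of 50, 2.28 with a common median and 2.07 to 2.16 with 1 array left out. Against Ki-RAS cells it was 1.14, 1.21, 2.26 and 2.06 to 2.14, and 2.01 with cyclic loess. The common median moved the median of all tested probes to 0.20 against control and 0.30 against Ki-RAS cells. The median bound was 1.70-fold without background correction, 1.86 with an offset of 50, 2.81 with cyclic loess, 2.91 with a common median and 2.50 to 2.80 with 1 array left out. Ki-RAS against control calls among members were 1 with an offset of 50, 5 with a common median and 14 with cyclic loess, beside 10 in the main fit. The median difference was 0.15 with cyclic loess and -0.01 to 0.02 with 1 array left out. For these changes the cause was not tested. The bounds of the 31 members named by the fixed rule all stayed above 1, which the choice of members again favours. Without background correction they were 0.424 to 0.776 of their value. Deviations of arrays with the same replicate letter, A or B, were correlated over 10848 probes. The values were -0.17 (Ha-RAS and Ki-RAS), -0.18 (Ha-RAS and control) and 0.10 (Ki-RAS and control). Whether same-lettered arrays shared a preparation was not tested. With the replicate block 183, 183 and 9 members were called, beside 183, 183 and 10 without it. Slide was not named in the files and could not be used. Detection limits all bounds: the lowest detected signals were only 83.5 to 88.8 where undetected probes had medians of 63.5 to 71.1.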
